A study of Mus musculus with 9 samples.

Results

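The genes of oxidative phosphorylation were examined in RNA from 9 mammary tumours of BlgCre-NeuKI mice. Members were all rows whose symbol began with Nduf, Uqcr, Cox4, Cox5, Cox6, Cox7, Cox8, Atp5 or mt-, together with Sdha, Sdhb, Sdhc and Sdhd, which gave 99 of the 18484 genes listed: 89 encoded in the nucleus and 10 in the mitochondrial genome. All mice, whichever the group, were heterozygous for an activated rat Neu gene placed in the Erbb2 locus behind a floxed stop cassette and for a Cre transgene under the Beta-lactoglobulin promoter, which acts in luminal cells of the mammary gland. Whether the cassette was recombined in a given tumour is not in the labels. By droplet digital PCR the study saw neither recombination of the cassette nor amplification in the tumour MS1349.1. The mice were of mixed FVB and C57Bl6 background and their ages are not given in the labels. Tumours were grouped by the labelled amplification of the Erbb2/Neu locus: 5 were high-amplified, all adenocarcinomas of no special type, AC(NST) (virgin: MS1213.1, MS1163.1, MS1163.2; parous: MS1218.2, MS1155.3) and 3 were not/low-amplified (MS1210.1 and MS1349.1, both adenosquamous carcinomas, ASQC, and MS1166.1, an AC(NST), all from parous mice). The remaining tumour, MS1156.1, was a sarcoma of a parous mouse and was described by its values only. No animal received a treatment, and each tumour gave 1 library.

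Oxidative phosphorylation passes electrons from NADH and succinate along complexes I to IV of the inner mitochondrial membrane to oxygen, and complex V, the ATP synthase, uses the proton gradient so built to make ATP. Most subunits are encoded in the nucleus and imported, while a small core set is transcribed inside the organelle from both strands of its own circular genome. Since every complex except complex II draws on both genomes, the nuclear and the mitochondrially encoded genes are described apart.

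Reads counted on genes ranged from 12501225 to 23912429 per tumour. The labels and the expression of the amplified gene ran together: Erbb2 had 5284 to 105019 normalised counts (counts divided by a size factor per tumour) in the high-amplified and 1532 to 2783 in the not/low-amplified tumours. The study reports discordant copy numbers for MS1213.1 and MS1218.2, both high by quantitative PCR and low by droplet digital PCR. Its exome data showed amplification in MS1213.1 and not in MS1218.2. Amplification, parity and histotype overlap in this design, because virgin tumours were all high-amplified and the ASQC all not/low-amplified, and they cannot be told apart in full. MS1163.1 and MS1163.2 share the number of a mouse. MS1218.2 stood apart by its other cells: its markers of fibroblasts and mesenchyme (7 genes) summed to 411971 normalised counts, against 34172 to 118871 in the other epithelial tumours, and those of macrophages (5 genes) to 35138 against 2531 to 11502; the study's methods name it as the tumour below their purity limit. In the sarcoma the markers of mammary epithelium (7 genes, with Epcam, Cdh1 and Krt8) summed to 481, against at least 36009 elsewhere.

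Nuclear members took between 0.413% (MS1213.1; Wilson 95% interval 0.410 to 0.417) and 1.08% (MS1166.1; 1.07 to 1.08) of the reads of an epithelial tumour. The high-amplified tumours, from the lowest, had 0.413% (MS1213.1), 0.501% (MS1155.3), 0.683% (MS1163.2), 0.700% (MS1218.2) and 0.764% (MS1163.1), and the not/low-amplified tumours 0.798% (MS1210.1), 0.876% (MS1349.1) and 1.08% (MS1166.1). The groups did not overlap. The sarcoma had the lowest share of the 9 tumours, 0.363%. These intervals cover counting error only, and in whole tumours fewer cells of a type and less RNA per cell cannot be told apart.

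Levels were compared per kilobase of exon, joining the exons of all annotated transcripts of a gene, so the value depends on which transcripts are annotated. By this measure the mean over the 8 epithelial tumours was highest, among the nuclear members, for the catalytic core of ATP synthase. It was 4291 normalised counts per kb for Atp5a1 (alpha subunit) and 4055 for Atp5b (beta subunit). Complex IV subunits followed, with 3674 for Cox8a, 3455 for Cox6b1 and 2597 for Cox6a1. The median level per kb was 508 for complex I (36 genes), 687 for complex II (4), 1156 for complex III (8), 661 for complex IV (17, counting Ndufa4, now known as one of its subunits, and the related Ndufa4l2) and 848 for ATP synthase (17). The set of complex IV includes Cox6a2, Cox6b2, Cox7b2 and Cox8c, at 0.222 to 6.69 per kb, which lower its median and had too few counts to be tested below. Sets were taken by symbol, so that of ATP synthase includes Atp5s and Atp5sl. The 7 complex I assembly factors (Ndufaf genes), which help to build complex I but are not part of it, had a median of 75.3 per kb. Among structural subunits, Ndufs5 (39.7 per kb), Atp5l (44.4) and Uqcrq (91.1) were low. Only reads with a single place in the genome were kept by the authors, and 75.7% of the 76-base windows (the read length) of Atp5l transcripts occur in another annotated gene as well, against 15.5% for Ndufs5 and 0 for Uqcrq. Over the 89 nuclear members, 52 shared no window and Atp5l was the 1 gene that shared over 50%. The joined exons of Atp5l span 6443 bases, yet its protein-coding transcripts held only 469 different windows. For Atp5b these were 4237 and 1841, and for Atp5a1 3135 and 2901. The low value of Atp5l and the order of Atp5a1 and Atp5b therefore depend on the length used.

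High-amplified tumours were compared with not/low-amplified tumours to ask which genes differ with amplification of the locus. Nuclear oxidative phosphorylation genes were lower in the high-amplified tumours in direction, and none passed the test (edgeR's quasi-likelihood test, adjusted p under 0.05 over 14007 genes, of which 129, or 0.921%, passed). Of 85 nuclear members that could be tested, 80 had a log2 fold change below 0, against 49.0% of all genes, with a median of -0.52 against 0.02 for all genes. Unadjusted p was under 0.05 for 22 members, all lower, where 11% of all genes were under it and lower and 11.8% under it and higher; no member was higher at that level. Without MS1213.1, MS1155.3, MS1349.1 or MS1166.1 in turn, 14, 13, 12 or 8 members were under it, and without MS1218.2 34 were. The shares of all genes under it in these fits are not given here, so these counts cannot be set against them. All 5 high-amplified tumours were below all 3 not/low-amplified tumours for 21 members, or 24.7%, against 8.04% of all genes. The other 4 nuclear members (Cox6a2, Cox6b2, Cox7b2 and Cox8c) had too few counts to be tested.

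**Figure D1:**
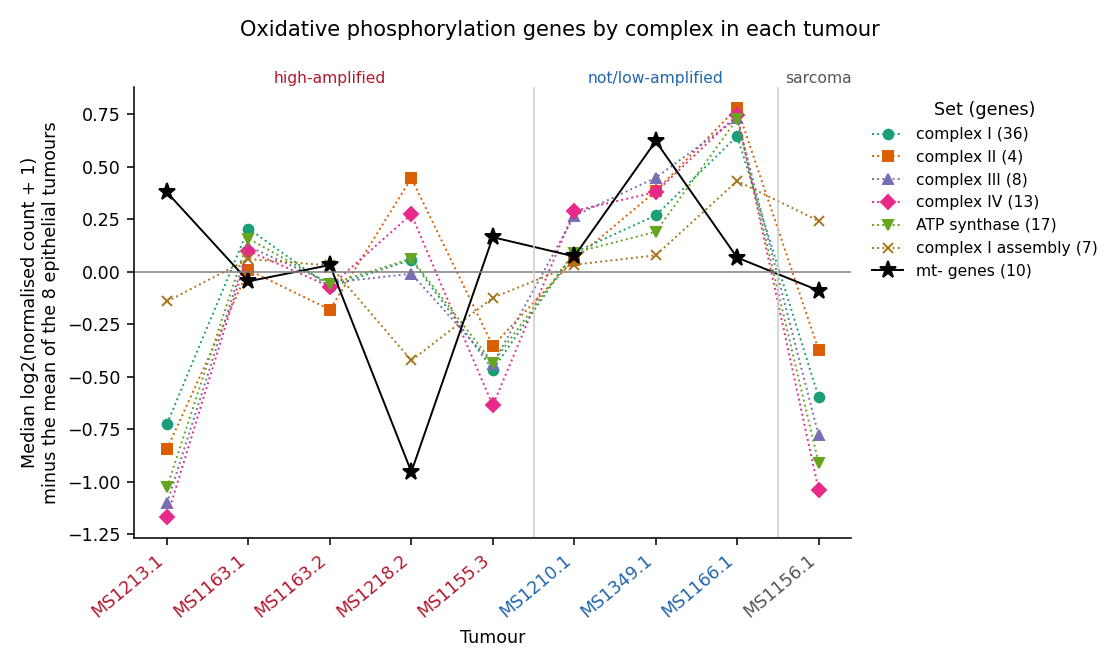
Median level of each complex in each tumour, as log2(normalised count + 1) minus the mean of the 8 epithelial tumours (y axis) by tumour (x axis), with the number of genes in brackets; dotted lines join the points of nuclear sets and the solid line those of the 10 mt- genes. The nuclear complexes I to V lie lowest in MS1213.1 among the epithelial tumours and highest in MS1166.1, while the mt- genes lie lowest in MS1218.2.

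By complex, the median log2 fold change was -0.48 for complex I (34 of 36 below 0), -0.60 for complex II (4 of 4), -0.70 for complex III (8 of 8), -0.65 for complex IV (13 of 13) and -0.61 for ATP synthase (16 of 17). The set of ATP synthase, taken by symbol, holds Atp5sl, known to act in complex I assembly, and Atp5s, its 1 member above 0. The complex I assembly factors (Ndufaf genes) stood nearer to all genes, at -0.16, with 5 of 7 below 0. Tumours of the same group also differed. Relative to the epithelial mean on the log2 scale, the median nuclear member of the high-amplified tumours was at -0.82 (MS1213.1), -0.46 (MS1155.3), -0.07 (MS1163.2), 0.05 (MS1218.2) and 0.15 (MS1163.1), and that of the not/low-amplified tumours at 0.13 (MS1210.1), 0.33 (MS1349.1) and 0.67 (MS1166.1). By this measure MS1163.1 lay above MS1210.1. For 62 of the 85 members the lowest epithelial tumour was MS1213.1, while for 53 the highest was MS1166.1. Each of complexes I to V was lowest in MS1213.1 and highest in MS1166.1 among the epithelial tumours: in the first their medians were -0.73, -0.84, -1.10, -1.17 and -1.03, and in the second 0.65, 0.78, 0.73, 0.75 and 0.73.

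The 5 nuclear members with the smallest p in the lower direction were Cox7a2l, Ndufa10, Uqcrh, Ndufb6 and Ndufv1. Cox7a2l (chr17:83501918-83517330, minus strand), whose product joins complexes III and IV into supercomplexes, had 622, 1022, 803, 1113 and 674 normalised counts in the high-amplified tumours (in the order MS1213.1, MS1163.1, MS1163.2, MS1218.2, MS1155.3) and 1706, 1466 and 3660.1 in the not/low-amplified ones (MS1210.1, MS1349.1, MS1166.1). The groups did not overlap, and MS1166.1 was far above the others. The log2 fold change was -1.40 ± 0.34 (SE), with adjusted p = 0.0752 in edgeR's test, and -0.90 without MS1166.1.

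Uqcrh, the hinge subunit of complex III, had 485, 981, 936, 1439 and 1206 normalised counts in the high-amplified tumours and 1836, 2239 and 3839.7 in the not/low-amplified ones, in the same order of tumours. It differed by -1.36 ± 0.36 on the log2 scale (SE; adjusted p = 0.0850, edgeR), with MS1213.1 lowest and MS1166.1 highest. Ndufb6, an accessory subunit of the complex I membrane arm, had 159, 386, 420.1, 549 and 388 against 760.3, 995 and 1129, a log2 difference of -1.32 ± 0.36 (adjusted p = 0.0878, edgeR). Here too no high-amplified tumour reached the lowest not/low-amplified one; 27.6% of the 76-base windows of Ndufb6 lie in the neighbouring gene Smim27, so part of its reads cannot be assigned with certainty.

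Ndufv1, the flavin-carrying subunit where NADH is oxidised, had 2248, 1403, 1237, 1723 and 1045 normalised counts in the high-amplified tumours and 3975, 2742 and 3138 in the not/low-amplified ones. MS1213.1, lowest for most members, was the highest of the high-amplified tumours for Ndufv1, and the difference was -1.08 ± 0.29 on the log2 scale (adjusted p = 0.0883, edgeR). Ndufa10, an accessory complex I subunit, gave the tightest groups, 935 ± 191 (SD, n = 5) against 1742 ± 147 (SD, n = 3), with a log2 difference of -0.88 ± 0.23 (adjusted p = 0.0826, edgeR). Atp5b, the nuclear member with the most normalised counts, stood at 12427 ± 3057 (SD, n = 5) against 25101 ± 5029 (SD, n = 3) normalised counts, with a log2 difference of -1.0 ± 0.34 (adjusted p = 0.133, edgeR).

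**Figure D2:**
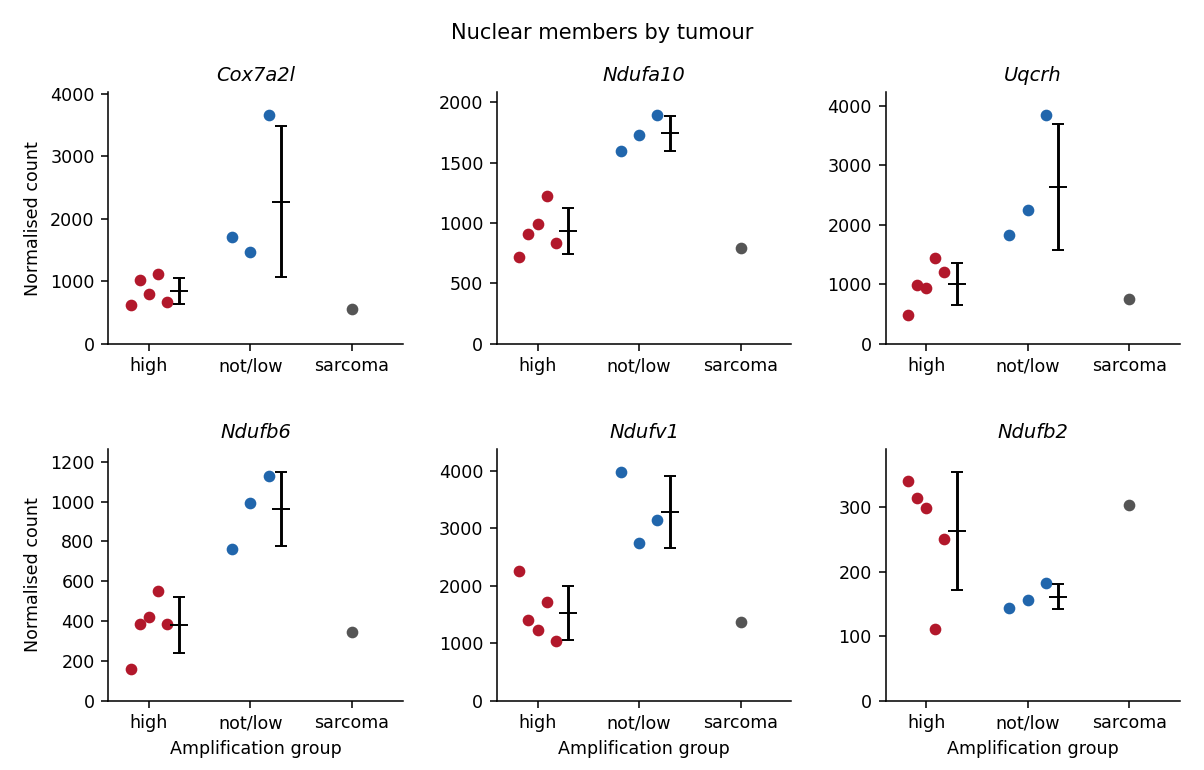
Normalised counts (y axes, from 0) of the 5 nuclear members with the smallest p in the lower direction and of Ndufb2, by group (x axes); points are tumours and bars the mean ± SD beside each group, with n = 5 and n = 3, and the single sarcoma has no bar. For the first 5 genes every high-amplified point lies below every not/low-amplified point, while for Ndufb2 MS1218.2, at 111, lies below all 3 not/low-amplified tumours.

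In the higher direction the 5 smallest p values belonged to Ndufb2, Ndufaf1, Atp5s, Ndufab1 and Ndufaf7, and no other tested nuclear member had a log2 fold change above 0. Ndufb2, an accessory complex I subunit, had 341, 315, 298, 111 and 249.9 normalised counts in the high-amplified tumours and 144, 156 and 182 in the not/low-amplified ones. The groups overlapped through MS1218.2 alone, and the log2 difference was 0.73 ± 0.39 (adjusted p = 0.296, edgeR). Without MS1218.2 it was 0.93, with adjusted p = 0.0467. Ndufaf1, an assembly factor of the complex I membrane arm, followed the same pattern, with 369, 337, 341, 110.2 and 318 against 225, 229 and 177, and a log2 difference of 0.50 ± 0.40 (adjusted p = 0.481). Atp5s, Ndufab1, the mitochondrial acyl carrier protein, and Ndufaf7, a methyltransferase for complex I assembly, differed by 0.28 ± 0.47, 0.10 ± 0.28 and 0.01 ± 0.32, within their errors; all 3 turned below 0 with parity as a covariate. Ndufb2 and Ndufab1 had 39.9 and 58.6 normalised counts per kb, under the complex I median of 508. Their joined exons are long, at 5628 and 6883 bases against a median of 1789 for the nuclear members tested, so these values depend on the length used.

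DESeq2, the test named in the study's methods, called 7 nuclear members lower at adjusted p under 0.05 and none higher, on a background of 5.61% of all genes called lower. They were Cox7a2l (adjusted p = 0.00805), Ndufa10 (0.0134), Ndufaf4 (0.0155), Uqcrh (0.0165), Ndufv1 (0.0167), Ndufb6 (0.0179) and Atp5b (0.0199). Ndufaf4, an assembly factor, had 140.4 ± 41.6 (SD, n = 5) against 307 ± 48.5 (SD, n = 3) normalised counts. Leaving out MS1218.2 raised edgeR's calls to 11.6% of all genes and 10 of 85 nuclear members. The members were thus called at about the rate of all genes. Among the 10 were Ndufa10, Ndufb6, Ndufv1, Uqcrc1, Uqcrh, Cox7a2l, Cox8a and Atp5d, all lower, and Ndufb2, higher.

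Exon length moved with these differences. Nuclear members are short, with a median exon length of 1789 bases against 4482 for the other genes tested, and short genes that are not members were lower in the high-amplified tumours too. Among the genes that are not members, the median log2 fold change was -0.50 for 282 genes under 1000 bases, -0.38 for 1423 genes of 1000 to 2000, -0.13 for 6141 genes of 2000 to 5000 and 0.28 for 6037 genes over 5000 bases. Nuclear members had medians of -0.51 (18 genes), -0.52 (33), -0.62 (30) and -0.07 (4) in the same bins. Below 1000 bases the members thus stood level with the other genes of the bin, and between 2000 and 5000 bases they stood lower. These lengths join the exons of all annotated transcripts. For some members of the latter bin, such as Atp5b, protein-coding transcripts held far fewer different windows than the joined exons have bases. For others, such as Ndufaf4, the numbers were close. The bins therefore do not match genes by transcript length, and whether the members stand lower at equal transcript length was not tested.

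**Figure D3:**
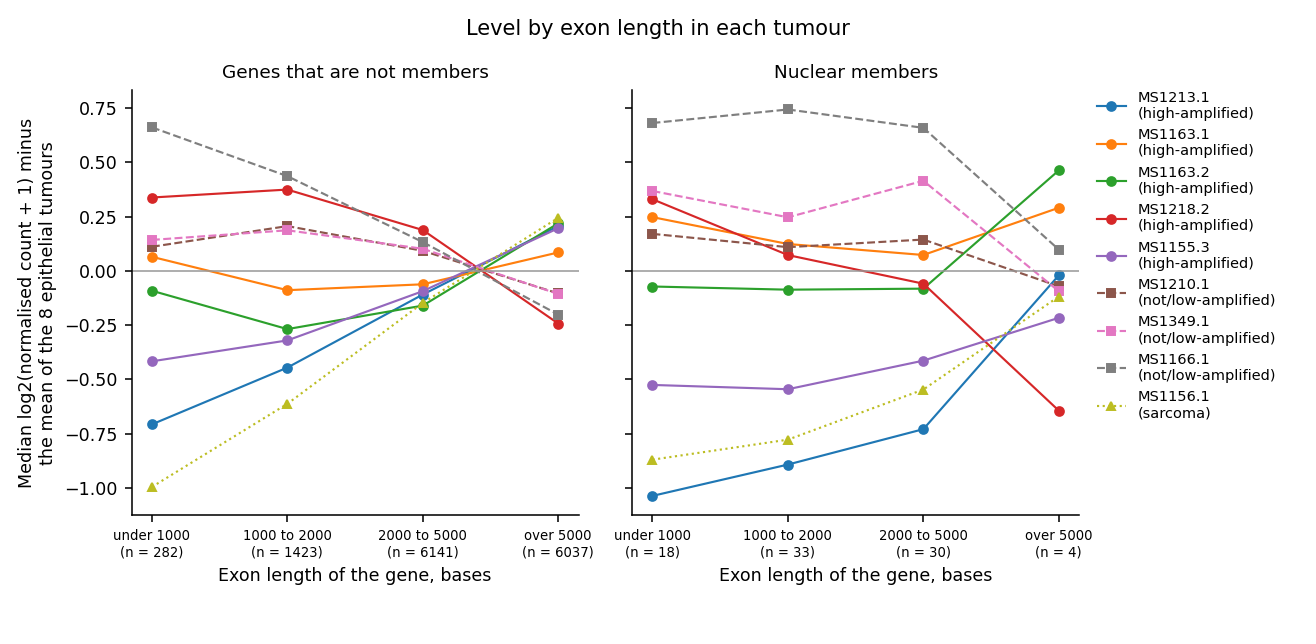
Median level, as log2(normalised count + 1) minus the mean of the 8 epithelial tumours (y axis), in 4 bins of exon length in bases (x axis, n = genes per bin) for the other genes (left) and the nuclear members (right); each line is a tumour. Short genes that are not members lie at -0.71 in MS1213.1 and 0.66 in MS1166.1, and the nuclear members keep a spread between these tumours up to 5000 bases.

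MS1213.1 and MS1166.1 stood at the ends for other short genes as well. Genes under 1000 bases that are not members had a median of -0.71 in MS1213.1, -0.42 in MS1155.3 and -1.0 in the sarcoma, and of 0.66 in MS1166.1, relative to the epithelial mean on the log2 scale. In the bin from 2000 to 5000 bases the other genes differed little (-0.11 in MS1213.1 and 0.13 in MS1166.1), while the nuclear members were at -0.73 and 0.66. A fit with an offset for exon length in each tumour, which was added after the trend was seen, put the median of the nuclear members at -0.24, with 64 of 85 below 0 against 51.0% of all genes. In that fit 10 members, or 11.8%, were lower at unadjusted p under 0.05, against 11.5% of all genes, and none passed adjustment. The offset used the joined exon length as well, and an offset for transcript length was not tested. The sum of the markers of mammary epithelium also ran with the groups. It was 36009 to 58190 normalised counts in the high-amplified and 82655 to 142562 in the not/low-amplified tumours. Taken singly, Cdh1, Krt8, Krt19 and Cldn7 did not overlap between the groups, while Epcam, Krt18 and Cldn3 did. The part of epithelial content in the result was not tested.

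The 7 genes called by DESeq2 were among the 10 with unadjusted p under 0.05 after the length offset, as were Ndufs1 and Uqcrc1. Both fits use the same counts and contrast, so this overlap is no separate support. The 10 were 11.8% of the members, near the 11.5% of all genes, and none passed adjustment. The log2 fold changes of the 7 in the offset fit were -1.03 for Cox7a2l, -0.76 for Ndufa10, -1.04 for Ndufaf4, -0.98 for Uqcrh, -0.86 for Ndufv1, -0.84 for Ndufb6 and -0.98 for Atp5b, with unadjusted p between 0.00348 and 0.0137 (edgeR). By complex, the offset put the median of complex I at -0.13, complex II at -0.39, complex III at -0.31, complex IV at -0.25 and ATP synthase at -0.41, and that of the assembly factors at 0.13.

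**Figure D4:**
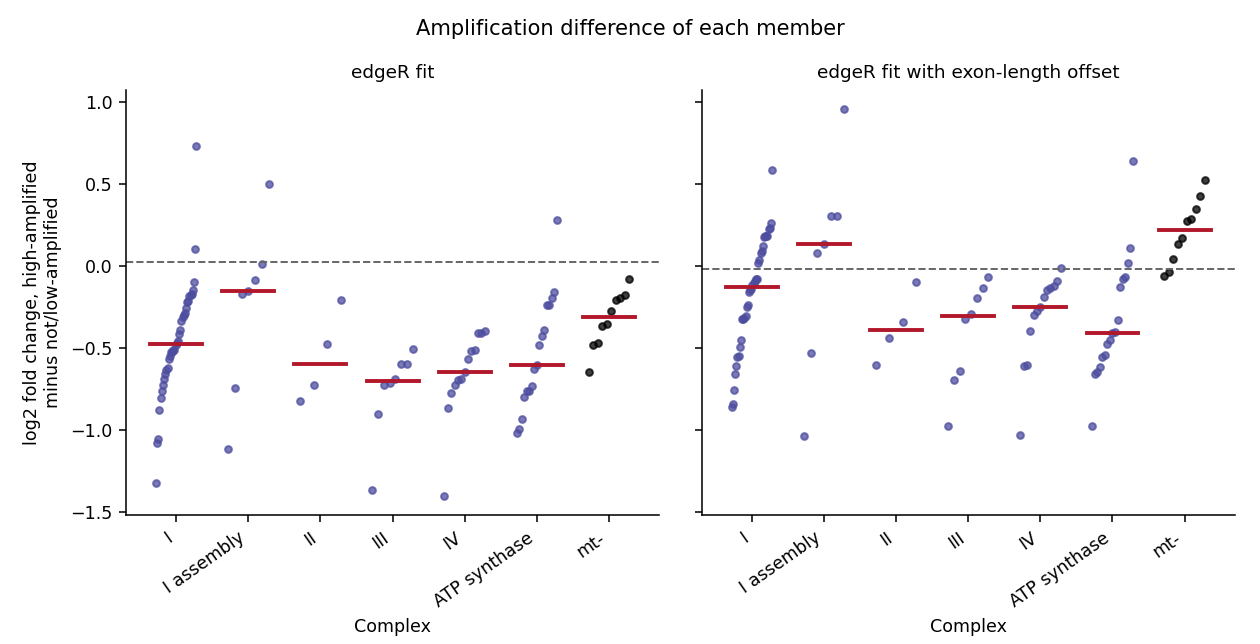
Log2 fold change of every tested member between high-amplified and not/low-amplified tumours (y axis) by complex (x axis), in the edgeR fit without (left) and with (right) an offset for exon length; points are genes, red bars medians and the dashed line the median of all genes tested. Without the offset the complexes have medians from -0.70 to -0.48 and the mt- genes -0.32; with it they move towards 0 and the mt- genes to 0.22.

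Nuclear members are known for promoters with sites for nuclear respiratory factors. The 250 bases before the transcription start of RefSeq (GRCm38.p6) were found for 71 of the 89 nuclear members and searched on both strands for GCGCA and GCGC set 1 base apart (NRF1), CCGGAAG (ETS factors, with GABPA among them; CTTCCGG on the other strand), AAGATGG (YY1) and CCAAT. The NRF1 letters were in 18.3% of the members against 3.86% of 27025 promoters, the ETS letters in 16.9% against 7.05%, and CCAAT in 43.7% against 34.5%; the YY1 letters were in none of the members against 4.53%. The promoters of 3 of the lowest members are shown to set them beside these shares, with any such match in capitals: Cox7a2l (chr17:83514334-83514583, minus strand, inside the longer gene model of GENCODE) held none of the 4, Uqcrh (chr4:116075071-116075320, minus strand) held CCAAT and the ETS letters close to the start, and Ndufb6 (chr4:40279422-40279671, minus strand) held the ETS letters at its far end. Ndufa10 and Ndufv1, also among these lowest members, held none of the 4 and are not shown. A match is a description of the letters only.
Cox7a2l: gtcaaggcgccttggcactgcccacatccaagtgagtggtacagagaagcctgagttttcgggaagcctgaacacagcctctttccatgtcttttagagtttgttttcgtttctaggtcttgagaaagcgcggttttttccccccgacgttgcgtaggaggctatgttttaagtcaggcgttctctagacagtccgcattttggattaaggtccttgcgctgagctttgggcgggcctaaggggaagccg
Uqcrh: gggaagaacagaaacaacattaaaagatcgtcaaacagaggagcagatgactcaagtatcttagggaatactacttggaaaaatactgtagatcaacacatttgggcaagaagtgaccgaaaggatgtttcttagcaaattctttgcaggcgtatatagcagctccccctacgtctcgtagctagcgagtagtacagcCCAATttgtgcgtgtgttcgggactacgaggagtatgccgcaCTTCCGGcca
Ndufb6: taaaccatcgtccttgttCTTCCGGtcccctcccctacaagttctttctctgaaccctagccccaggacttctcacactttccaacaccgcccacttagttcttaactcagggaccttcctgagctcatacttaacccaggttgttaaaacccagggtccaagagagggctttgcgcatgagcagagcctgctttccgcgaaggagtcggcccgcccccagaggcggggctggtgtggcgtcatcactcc

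Mitochondrially encoded genes did not follow the nuclear ones across the tumours. Of the reads of the high-amplified tumours they took 0.483% (MS1218.2), 0.821% (MS1163.1), 0.957% (MS1163.2), 1.14% (MS1155.3) and 1.26% (MS1213.1), against 0.957% (MS1210.1), 0.988% (MS1166.1) and 1.37% (MS1349.1) of those of the not/low-amplified tumours. The groups overlapped, and MS1218.2, the tumour with the high mesenchymal and macrophage markers, was lowest; the part of those cells was not tested. Reads of the 10 mt- genes stood to those of the nuclear members as 3.04 to 1 in MS1213.1 and 2.27 to 1 in MS1155.3, and as 0.690 to 1 in MS1218.2 and 0.917 to 1 in MS1166.1. In the sarcoma, with 0.796% of reads on mt- genes, the ratio was 2.19.

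None of the 10 mt- genes passed the amplification test and none had unadjusted p under 0.05. All 10 had a log2 fold change below 0, between -0.65 and -0.08, with a median of -0.32 and errors from 0.40 to 0.77. Without MS1349.1 the median was -0.066 and without MS1218.2 -0.14. With the length offset it was 0.22 and 8 of the 10 were above 0, so no direction can be given for them. mt-Co1, the catalytic subunit of complex IV, was the most abundant member of either genome, with 79908 ± 25208 normalised counts (SD, n = 5; high-amplified) against 113112 ± 20744 (SD, n = 3), and a log2 difference of -0.48 ± 0.47 (adjusted p = 0.565, edgeR). mt-Cytb, the complex III subunit, had 19626 ± 5847 against 20962 ± 5581 (log2 difference -0.08 ± 0.40).

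The complex I subunits followed in abundance. mt-Nd1 had 19032 ± 6088 normalised counts (SD, n = 5; high-amplified) against 23274 ± 5764 (SD, n = 3), with a log2 difference of -0.28 ± 0.40. mt-Nd5 differed by -0.37 ± 0.41, mt-Nd2 by -0.19 ± 0.43 and mt-Nd4 by -0.18 ± 0.40. All 6 of these abundant genes had their lowest level in MS1218.2, such as 4026 for mt-Nd2 against 9122 to 15967 in the other epithelial tumours.

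mt-Nd6, the only one of the 10 that lies on the minus strand of the mitochondrial genome (positions 13552 to 14070), had 218, 237, 173, 7.41 and 165 normalised counts in the high-amplified tumours and 139, 248 and 172 in the not/low-amplified ones. The single low value was again MS1218.2, with 8 reads where the other tumours had 128 to 340. Its neighbour on the plus strand, mt-Nd5, was lower there as well, at 4959 against 9945 to 19036, a smaller gap. The libraries were made with a strand-specific kit and aligned with unstranded settings, and the strand option of the counting is not given in the sources used here.

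**Figure D5:**
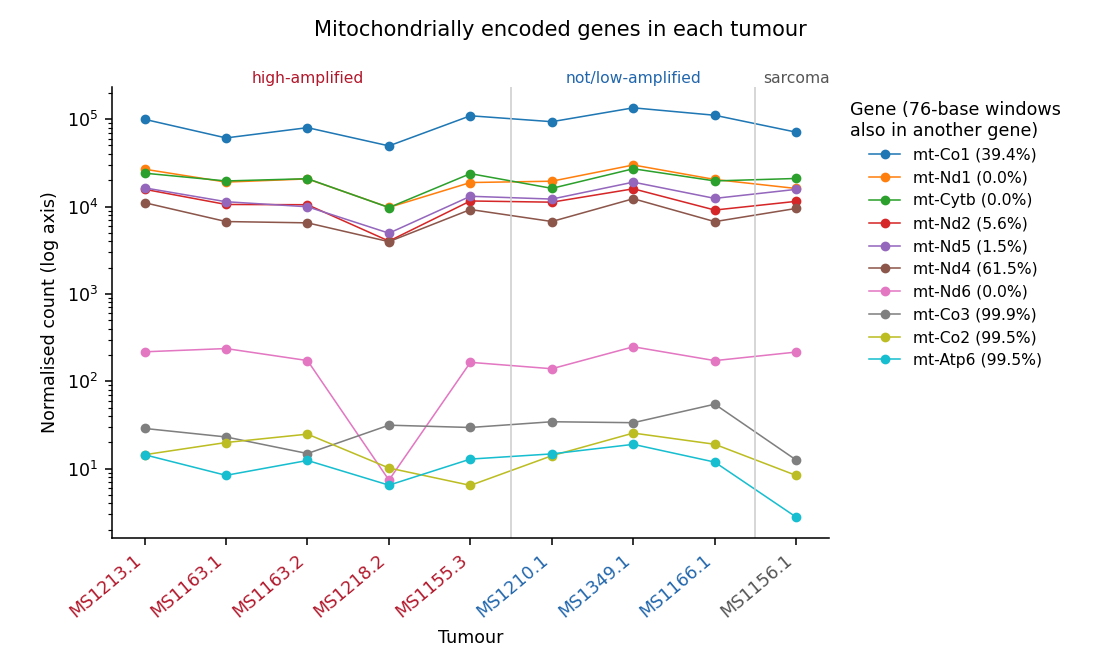
Normalised counts (y axis, log scale) of the 10 mitochondrially encoded genes in each tumour (x axis); the legend gives the share of each gene's 76-base windows found in another annotated gene. mt-Co2, mt-Co3 and mt-Atp6, with 99.5% or more of their windows shared, lie between 2.79 and 54.7, and mt-Nd6 drops to 7.41 in MS1218.2.

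mt-Co2, mt-Co3 and mt-Atp6 are listed at very low levels, and nearly every read they could give has a second place in the genome. mt-Co2 and mt-Co3 are core subunits of complex IV and mt-Atp6 the proton channel of ATP synthase, transcribed with their neighbours as 1 long RNA. Yet mt-Co2 had 6.44 to 25.6 normalised counts over the epithelial tumours, mt-Co3 14.9 to 54.7 and mt-Atp6 6.48 to 19.0, where mt-Co1 had 49482 to 134885. The annotation (GENCODE M21, GRCm38) holds a nuclear copy of each on chromosome 1: Gm28661 (chr1:24614885-24615565, minus strand) matched all 681 aligned bases of mt-Co2, Gm28437 (chr1:24613189-24613971) all 783 of mt-Co3 and Gm10925 (chr1:24613974-24614651) all 678 of mt-Atp6. The start of mt-Co2, bases 1 to 100 of its 684, is shown because the nuclear copy is identical to it at every base, so no letter is in capitals.
mt-Co2: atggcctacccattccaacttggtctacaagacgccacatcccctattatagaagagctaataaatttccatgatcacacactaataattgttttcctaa

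Of the 76-base windows, 99.5% for mt-Co2, 99.9% for mt-Co3 and 99.5% for mt-Atp6 lay in these copies, and a read from either place then has no single position. mt-Nd4 shared 61.5% of its windows with Gm28439 and mt-Co1 27.5% with Gm29216, and both were still listed at 3966 normalised counts or more. mt-Cytb, mt-Nd1 and mt-Nd6 shared none. Over all annotated genes mt-Co1 shared 39.4% of its windows, mt-Nd2 5.61% and mt-Nd5 1.54%. Reads without a single position were dropped, so a single read of a shared window would be left out of the counts. The reads were pairs, and whether a mate outside the copy gave a pair its place was not tested. The share of reads on mt- genes may therefore be a lower limit. mt-Nd3 and mt-Nd4l, with 97.8% and 98.6% of their windows in copies beside these, and mt-Atp8 were not analysed here.

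Several subunits of complex IV come in forms bound to certain tissues. Those of striated muscle, testis or lung were at or near 0 in the epithelial tumours: Cox6a2, the form of heart and skeletal muscle, had 0 to 3.73 normalised counts, Cox6b2 0 to 36.9, and Cox7b2 and Cox8c had a single count each in 1 tumour. Cox4i2, an oxygen-responsive form, had 0 to 29.6 with a log2 difference of -0.40 ± 0.98 by amplification. Their widely expressed partners were at 831 to 2752 for Cox6a1, 1014 to 3829 for Cox6b1, 436 to 1865 for Cox7b and 1163 to 3403 for Cox8a over the same tumours. Cox6b1 differed by -0.65 ± 0.34, Cox8a by -0.73 ± 0.36, Cox7a2 by -0.57 ± 0.36, Cox7b by -0.52 ± 0.39 and Cox6a1 by -0.41 ± 0.38 on the log2 scale, and none passed the test.

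Ndufa4l2, a form of the complex IV subunit Ndufa4 that is induced by hypoxia, was high in MS1218.2: it had 21.2, 58.8, 22.4, 233 and 19.3 normalised counts in the high-amplified tumours and 106, 73.1 and 195 in the not/low-amplified ones. It had a log2 difference of -0.78 ± 0.86 by amplification (adjusted p = 0.616) and -2.0 (adjusted p = 0.0565) without MS1218.2, and -0.32 without MS1166.1. Ndufa4 itself had 1339 ± 480 (SD, n = 5) against 2177 ± 231 (SD, n = 3) normalised counts, a log2 difference of -0.69 ± 0.29 (adjusted p = 0.189, edgeR). Atp5g1, 1 of 3 genes for the membrane ring of ATP synthase, lies 2.34 Mb from Erbb2, start to start (chr11:96068852-96075670) and was the only member within 5 Mb of it. It was not higher in the high-amplified tumours: it had 429.5, 1425, 1157, 1394 and 886 normalised counts against 1009, 1630.0 and 1678, a log2 difference of -0.43 ± 0.38 (adjusted p = 0.523, edgeR). Its partners Atp5g2 and Atp5g3 had log2 differences of -0.48 ± 0.44 and -0.93 ± 0.31.

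The sarcoma, a single tumour without a replicate, was below the epithelial mean for 77 of the 85 nuclear members tested, with a median of -0.74 on the log2 scale, and its lowest tested members were Atp5sl (-1.82), Cox8a (-1.71), Atp5g2 (-1.53), Atp5g3 (-1.34) and Cox6a1 (-1.30). Atp5sl, named for its likeness to Atp5s and known to act in complex I assembly, had 68.4 normalised counts there and 195 to 366 in every epithelial tumour. The highest of those tested were Ndufaf4 (0.88), Ndufb2 (0.53), Cox4i2 (0.41), Sdhb (0.38), the iron-sulphur subunit of complex II, and Ndufaf7 (0.38). Short genes that are not members were low in the sarcoma too, as given above. Cox6a2 reached 233 normalised counts in the sarcoma from 167 reads, against at most 3 reads in any epithelial tumour, and the markers of skeletal muscle (8 genes) summed to 31568 there against 73.2 to 3549; whether these come from muscle beside the tumour was not tested.

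ASQC tumours (n = 2) were compared with AC(NST) tumours (n = 6) for differences by histotype, and virgin (n = 3) with parous epithelial tumours (n = 5) for those by reproductive history. By histotype no member passed the test (0.236% of all genes did), and the nuclear median was 0.23 on the log2 scale, against -0.08 for all genes. Only 1 member, Ndufaf4 (0.99 ± 0.44, unadjusted p = 0.0481, adjusted p = 0.567, edgeR), was higher at unadjusted p under 0.05, against 4.38% of all genes. Next in p were Ndufv1 at 0.91 ± 0.41 (0.57 without MS1210.1) and Ndufa10 at 0.62 ± 0.36 higher, and Ndufb2 at -0.73 ± 0.48, Atp5g2 at -0.53 ± 0.52 and Ndufa6 at -0.31 ± 0.46 lower in ASQC. The 10 mt- genes were all above 0, with a median of 0.37, where 55.1% of all genes were below 0, and none had unadjusted p under 0.05. With the length offset the histotype median was -0.06 for all genes, 0.08 for the nuclear members and 0.04 for the mt- genes, of which 3 were then below 0.

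By parity no gene of any kind passed (0.00% by edgeR, with 1200 genes lower and 784 higher at unadjusted p under 0.05). In virgin tumours 76 of 85 nuclear members were lower, with a median of -0.41, against 55.6% of all genes and a median of -0.10. Genes that are not members had parity medians of -0.63 under 1000 bases, -0.53 from 1000 to 2000, -0.26 from 2000 to 5000 and 0.20 over 5000. The nuclear members had -0.49, -0.43, -0.38 and 0.24 in these bins. At unadjusted p under 0.05, 7 members (8.24%) were lower, against 8.57% of all genes, and 1 was higher, against 5.60%. The lowest p belonged to Uqcrh (-1.39 ± 0.43), Sdhb (-1.11 ± 0.40) and Ndufb6 (-1.25 ± 0.45), and the higher one was Ndufb2 (0.92 ± 0.33, adjusted p = 0.312, edgeR), with Ndufaf1 (0.72 ± 0.36) and Atp5s (0.80 ± 0.40) next. These comparisons share tumours with the one by amplification, since all virgin tumours were high-amplified. With the length offset the parity median was -0.07 for the nuclear members and -0.07 for all genes.

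The pathway around the complexes was followed through 90 further genes, of which 87 were tested. None passed by amplification; 65 were below 0, with a median of -0.38, and 18 were lower and 2 higher at unadjusted p under 0.05, where 49.0% of all genes were below 0, 11% lower and 11.8% higher at that level. Carriers of the mitochondrial membranes (median -0.70, 7 of 7 below 0) and enzymes of the tricarboxylic acid cycle (-0.66, 12 of 13 below 0) were the lowest lists, and genes for upkeep and transcription of mitochondrial DNA (-0.13, 7 of 12 below 0) and regulators (0.03, 4 of 9 below 0) stood near all genes. Slc25a5, an ADP/ATP carrier, had 3894 ± 1225 (SD, n = 5) against 10196 ± 4368 (SD, n = 3) normalised counts (log2 difference -1.37 ± 0.36, adjusted p = 0.0850, edgeR). Cs, citrate synthase, whose activity is often taken as a measure of mitochondrial content, had 2691 ± 699 against 5299 ± 884 (-0.96 ± 0.27, adjusted p = 0.0942), and its difference was -1.08 with the length offset; Sucla2, a subunit of succinyl-CoA ligase, differed by -0.89 ± 0.24 and by -0.84 with the offset.

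Among the regulators, Esrrg, an orphan nuclear receptor that drives oxidative genes, had 663, 1312, 981, 660.0 and 909 normalised counts in the high-amplified tumours and 141, 259 and 13.1 in the not/low-amplified ones, opposite to the direction of the complexes. The groups did not overlap, and the log2 difference was 2.71 ± 0.76 (adjusted p = 0.0923, edgeR). The coactivator Ppargc1a differed by 1.51 ± 0.81 in the same direction, with overlapping groups. Ppargc1b (-0.66 ± 0.57), Esrra (-0.62 ± 0.38), Nrf1 (0.08 ± 0.28), Gabpa (-0.09 ± 0.30), Tfam, which packs mitochondrial DNA (-0.41 ± 0.29), and Polrmt, its RNA polymerase (0.13 ± 0.26), did not pass the test either. Ttc19, needed by complex III (0.89 ± 0.35), and Cox16, an assembly factor of complex IV (1.06 ± 0.52), were the other genes of the lists with the smallest p in the higher direction.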

How the data were processed

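Per the labels and the study's methods, total RNA of snap-frozen tumours was depleted of ribosomal RNA and sequenced as pairs of 76 bases; the authors aligned reads to mouse build 38, kept uniquely mapped reads and counted them per gene with HTSeq. The deposited count tables hold whole reads per gene, and the deposited signal values are these counts divided by 1 DESeq2 size factor per tumour; for the sarcoma the factor was computed here by median of ratios. Genes reaching 10 counts in 3 or more epithelial tumours were tested with edgeR 4.0.16 (TMM, quasi-likelihood, Benjamini-Hochberg over all 14007 genes) under R 4.3.3, without covariates; DESeq2 1.42.0, other scalings and filters, left-out tumours and a length offset were alternatives. Fits were tested on simulated data. Relative levels use log2(normalised count + 1). Tumours were replicates, so p-values measure the spread between tumours and not that between mice, since MS1163.1 and MS1163.2 share a mouse number. Exon lengths and transcripts came from GENCODE M21, and promoters from RefSeq. The exon length of a gene joined the exons of all its annotated transcripts. Genes were named by rule: all mt- genes, the smallest p values in each direction, tissue forms and their partners, members near Erbb2 and the extremes of the sarcoma; Atp5b, Atp5a1, Atp5l, Ndufs5 and Uqcrq were added after their values were seen, as were those called by an alternative. Members and lists were chosen with earlier results of these data known. Some items of the lists are not reported here.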

Additional observations from a re-analysis of the deposited data

Results flagged for a closer look

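Of 48 values tested among the 5 high-amplified tumours, 5 had a tumour whose gap to the next exceeded 0.71 of the range, where chance flags about 1 in 20. In MS1218.2, Ndufaf1 was at 110.2 normalised counts against 318 to 369 in the other 4, Ndufa4l2 at 233 against 19.3 to 58.8, and Cox6b2 at 16.7 against 0. Cox7b2 in MS1213.1 (0.963) and Cox8c in MS1163.1 (1.05) each stand for a single read where the others had none.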

How the results depend on the processing

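No nuclear or mitochondrially encoded member passed edgeR's test under any alternative run with edgeR's other scalings or filters, and the nuclear median by amplification stayed below 0 in all, from -0.85 (AC(NST) tumours only, with 1 not/low-amplified tumour whose spread is assumed to be like that of the others) to -0.24 (length offset). DESeq2 called 7 nuclear members, with 5.61% of all genes called lower. Leaving out 1 tumour gave 0 to 10 of 85 by edgeR, the 10 without MS1218.2, where 11.6% of all genes were called. The 22 members at unadjusted p under 0.05 became 10 with the length offset, 12 with parity as a covariate, 11 in parous tumours only, 7 with the sarcoma added, and 8 to 34 with 1 tumour left out (14, 13, 12 and 8 without MS1213.1, MS1155.3, MS1349.1 and MS1166.1, and 34 without MS1218.2). The mt- median of -0.32 moved to 0.22 with the length offset, and lay between -0.45 and -0.066 with 1 tumour left out (-0.066 without MS1349.1, -0.14 without MS1218.2). By histotype the 1 such nuclear member became 0 under DESeq2, median-of-ratios scaling or no filter, and 0 to 8 with 1 tumour left out (8 without MS1166.1); by parity the 8 became 1 to 17 (1 without MS1213.1, 5 without MS1163.2 or MS1210.1, 17 without MS1155.3). With the length offset 11.5% of all genes were lower at unadjusted p under 0.05 by amplification, against 11.8% of the nuclear members. For the other settings the shares of all genes at that level are not given here. Those counts therefore cannot be read as particular to the members. The causes of these moves were not tested.

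Some amplification differences changed sign, none of them past the test. With the length offset they were 0.17 for mt-Co2, 0.52 for mt-Nd6, 0.041 for mt-Nd5, 0.43 for mt-Cytb, 0.29 for mt-Nd4, 0.34 for mt-Nd2, 0.27 for mt-Nd1, 0.13 for mt-Atp6 and -0.11 for Ndufab1. In AC(NST) tumours only they were 0.13 for mt-Nd4, 0.17 for mt-Nd2, -0.076 for Ndufab1 and -0.37 for Ndufaf7. With parity as a covariate or in parous tumours only they were -0.48 and -0.44 for Atp5s, -0.28 and -0.24 for Ndufab1, -0.37 and -0.34 for Ndufaf7, 0.15 and 0.19 for Cox4i2, and 0.055 and 0.10 for Ndufa4l2. Ndufaf7 was also at -0.0060 under DESeq2, -0.000554 with median-of-ratios scaling, -0.028 without the filter, -0.063 with the MS1163 pair summed and -0.079 with the sarcoma added. With 1 tumour left out the ranges were -0.40 to 0.10 for mt-Nd6, -0.25 to 0.16 for mt-Cytb, -0.37 to 0.19 for mt-Nd4, -0.39 to 0.072 for mt-Nd2, -0.0042 to 0.23 for Ndufab1 and -0.16 to 0.20 for Ndufaf7. No paired analysis was possible because the labels give the groups no shared replicate numbers. At this depth Cox7b2 and Cox8c, with 1 read each, allow no comparison.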
